A study of Mus musculus with 6 samples.

Results

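The 37 genes described here encode proteins of DNA replication and of mitosis, read out by RNA-seq in spheroids of 4T1 cells, a murine mammary carcinoma line used as a model of triple-negative disease. They were listed by name and not by a cut on their values, though earlier results of these data were known. Each symbol matched 1 of the 48820 Ensembl identifiers of the deposited table, and all 37 genes passed the filter on low counts, with 15807 genes tested in all. The set was divided by the phase of the cell cycle in which the products act, into 17 genes of the G1/S transition and S phase and 20 genes of G2 and mitosis. The genotypes compared were a LATS1/2 double-knockout 4T1 line (dKO, 3 libraries) and wild-type 4T1 cells (WT, 3 libraries), both grown as spheroids in RPMI with serum. The labels call the libraries biological replicates. They do not say whether these came from separate cultures or whether the knockout line is 1 clone, so p-values measure the spread between these libraries, which may be technical.

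Cells that enter the division cycle switch on their genes in waves. In late G1, cyclin E with its kinase partner releases E2F transcription factors from the retinoblastoma family, and E2F switches on genes that license origins, copy DNA and make deoxynucleotides. Later, complexes of MYB and FOXM1 act on the genes of chromosome condensation, spindle assembly and cytokinesis, many of which carry CCAAT boxes and a cell cycle homology region (CHR) just before the gene start. LATS1 and LATS2 are the Hippo pathway kinases that hold back the coactivators YAP and TAZ, which are known as drivers of proliferation in epithelial tumours.

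Library totals ran from 38194478 to 49630116 counts. On the second principal component, which held 6.20% of the variance, WT 2 lay apart from the other WT libraries. It was at -31.0, against 11.3 for WT 1 and 17.6 for WT 3. Likewise dKO 3, at 47.9, lay apart from dKO 1 and dKO 2, at -21.2 and -24.6. WT 2 decided several of the values below. Lats1 stood at 51.5, 53.0 and 48.0 CPM in dKO 1, 2 and 3, against 158, 146 and 155 CPM in WT 1, 2 and 3. Lats2 was higher in the libraries labelled dKO, at 86.7, 83.3 and 63.5 CPM against 28.3, 30.4 and 22.7 CPM in WT. Gene counts do not show small edits, so neither value checks the knockout of Lats2, and directions below hold between libraries as labelled. The epithelial genes of the 4T1 line were high in every library, with summed levels of 3301 to 4002 CPM over 5 markers in dKO and 4202 to 4654 CPM in WT. All 5 were called, in both directions. Krt8 and Krt18, keratins of simple epithelia, and the adhesion molecule gene Epcam were lower in dKO, with log2 fold changes of -0.55, -0.66 and -1.46 (adjusted p = 0.00404, 0.000558 and 4.68e-07 by edgeR). The keratin gene Krt19 and the E-cadherin gene Cdh1 were higher in dKO, at 1.63 and 1.06 (adjusted p = 3.28e-06 and 3.71e-06 by edgeR).

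Changes in the 37 genes were mixed in direction and mostly small. Of the 17 G1/S genes in dKO, 6 rose, 4 fell and the other 7 failed the test (median log2 fold change 0.11). Among the 20 G2/M genes 3 rose and 3 fell, and 14 failed it (median 0.01). A gene was called at an adjusted p under 0.05 by edgeR's quasi-likelihood test, adjusted over all genes tested. Of all genes tested, 57.3% were called, 28.6% higher and 28.7% lower, with a median log2 fold change of -0.01. Thus 58.8% of the G1/S genes were called, close to the share among all genes, and 30.0% of the G2/M genes. No dKO value lay within the WT range, or the reverse, for 10 of the 17 G1/S genes and 7 of the 20 G2/M genes. Among all genes tested this share was 65.6%, higher than in either set. These are bulk libraries, in which fewer cells in a phase of the cycle and less RNA per cell cannot be told apart.

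**Figure D1:**
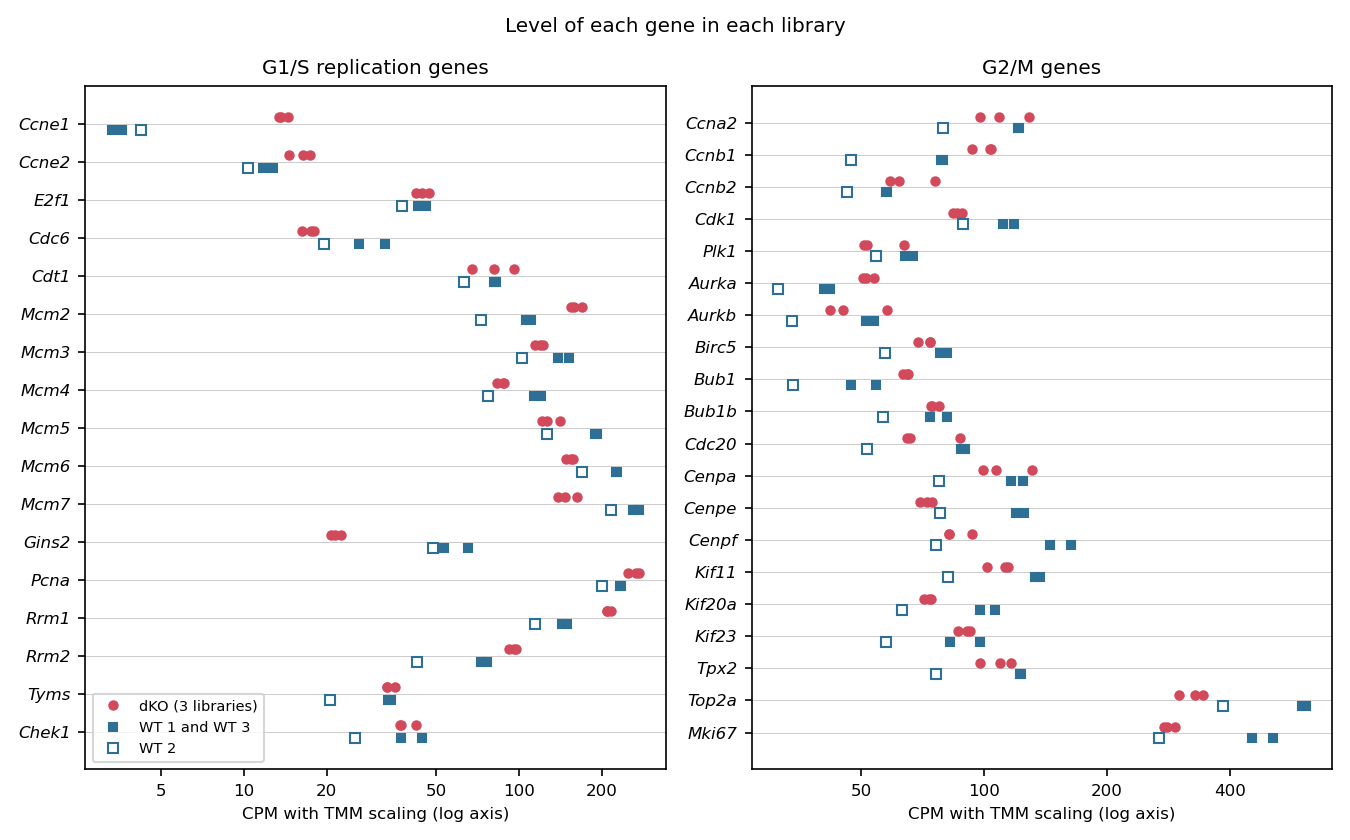
Level of each of the 37 genes in every library, in CPM (counts scaled to the library total, with TMM) on a log axis. Red circles are the 3 dKO libraries, filled blue squares WT 1 and WT 3, and open squares WT 2. WT 2 was the lowest WT library for every gene shown except Ccne1.

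Cyclin E genes were higher in dKO. Ccne1 (ENSMUSG00000002068, GRCm38 chromosome 7, 38097984 to 38107534), which encodes the cyclin that drives entry into S phase, stood at 13.6, 13.4 and 14.5 CPM in dKO 1, 2 and 3, against 3.61, 4.24 and 3.32 CPM in WT 1, 2 and 3. Levels are CPM, counts scaled to the library total with TMM factors. All 3 dKO libraries lay far above all 3 WT libraries. The log2 fold change, dKO minus WT, was 1.90 ± 0.17 (SE, n = 3 each; edgeR adjusted p = 1.74e-05). It was the only rise among the 37 genes that also passed a test against a 1.5-fold change, which 28.8% of all genes passed, 13.9% higher and 14.9% lower. Ccne2, the second cyclin E gene, was at 16.4, 17.5 and 14.6 CPM in the dKO libraries, against 12.8, 10.4 and 11.7 CPM in WT, a log2 fold change of 0.47 ± 0.14 (adjusted p = 0.0173 by edgeR). The groups were separate, but the gap was narrow, and the call was lost without dKO 1 (adjusted p = 0.0517 by edgeR) or without dKO 2 (0.0674). Ccne2 overlaps Ints8 on the opposite strand, and reads of such pairs are not separable if counting ignored strand.

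E2f1, which encodes the E2F factor that activates S-phase genes, did not pass. Its levels were 46.9, 42.1 and 44.5 CPM in the dKO libraries, against 42.9, 37.7 and 46.1 CPM in WT, and the groups overlapped. The 95% interval of its log2 fold change ran from -0.15 to 0.30. Chek1, the gene of the kinase that guards stalled replication forks, likewise overlapped, at 37.0, 37.4 and 42.4 CPM in the dKO libraries against 37.4, 25.4 and 44.3 CPM in WT, with an interval of -0.29 to 0.54.

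The genes that load the replicative helicase did not move together. Cdc6, an ATPase that brings MCM to origins, was at 16.3, 17.6 and 18.03 CPM in the dKO libraries, against 32.6, 19.6 and 26.2 CPM in WT. Each dKO library was below each WT library, with WT 2 close to the dKO range. Its log2 fold change was -0.59 ± 0.18 (adjusted p = 0.0179 by edgeR), and the call was lost without WT 1 (adjusted p = 0.0733 by edgeR) or without dKO 1 (0.0641). Cdt1, which loads MCM alongside CDC6, was at 80.9, 67.6 and 95.6 CPM in dKO and 80.8, 63.3 and 82.1 CPM in WT, with overlapping groups and an interval of -0.22 to 0.44 on the log2 scale. Cdt1 overlaps Gm20388 on its own strand.

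Among the 6 subunits of the MCM2-7 helicase, Mcm2 rose while Mcm6 and Mcm7 fell. Mcm2 (ENSMUSG00000002870, chromosome 6, 88883474 to 88898780) was at 155, 158 and 169 CPM in dKO 1, 2 and 3, against 110.2, 72.5 and 106 CPM in WT 1, 2 and 3. Every dKO library exceeded every WT library, and the log2 fold change was 0.74 ± 0.15 (adjusted p = 0.00233 by edgeR). Mcm7 (ENSMUSG00000029730, chromosome 5, 138164583 to 138172422) went the other way, with 138, 147 and 163 CPM in the dKO libraries against 273, 215 and 259.8 CPM in WT, a log2 fold change of -0.74 ± 0.10 (adjusted p = 0.00028 by edgeR). Mcm6 was at 148, 154 and 157 CPM in dKO and 227, 169 and 226 CPM in WT, a log2 fold change of -0.44 ± 0.11 (adjusted p = 0.00838 by edgeR). For both genes the groups were separate, and the dKO libraries lay closer to WT 2 than to WT 1 and WT 3. The calls of Mcm2, Mcm6 and Mcm7 held whichever library was dropped.

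The count of Mcm2 relative to that of Mcm7 was 1.12, 1.08 and 1.04 in dKO 1, 2 and 3, against 0.404, 0.337 and 0.409 in WT 1, 2 and 3. This ratio within a library does not depend on scaling and was about even in dKO and well below even in WT. Per kilobase of annotated exon, the mean levels of the 6 subunits lay between 23.1 CPM per kb for Mcm2 and 33.7 for Mcm7 in dKO, against 13.8 for Mcm2 and 56.3 for Mcm7 in WT. Mcm2 was the lowest and Mcm7 the highest subunit in both groups by this measure. The range was narrower in dKO, where Mcm3, Mcm5, Mcm6 and Mcm7 all lay between 31.7 and 33.7 CPM per kb, against 34.9 to 56.3 in WT. The rank of Mcm2 depends on its annotated exon length, 6956 bases, against 3589 (Mcm4) to 4666 (Mcm6) for the other subunits. By mean CPM alone, Mcm2 was the highest subunit in dKO, at 160, against 153 for Mcm6 and 149 for Mcm7. In WT it was the lowest, at 96.3, against 103 for Mcm4. Mcm7 shares its locus with the microRNA genes Mir106b, Mir93 and Mir25 and overlaps Ap4m1 and Cops6 on the other strand, so part of its reads may belong to these.

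The other 3 subunits did not pass, with log2 fold changes of -0.14 for Mcm3, -0.26 for Mcm4 and -0.39 for Mcm5. Mcm5 was at 126, 121 and 141 CPM in dKO and 188, 127 and 192 CPM in WT, where WT 2 alone lay within the dKO range (adjusted p = 0.0575 by edgeR). DESeq2 called it lower (DESeq2 adjusted p = 0.0248). Without WT 2, all 3 were called lower, at -0.29 for Mcm3, -0.44 for Mcm4 and -0.56 for Mcm5 (adjusted p = 0.00988, 0.00111 and 0.000674 by edgeR). Without WT 3 they were not called, at -0.022 for Mcm3, -0.14 for Mcm4 and -0.28 for Mcm5. Without WT 2, Mcm2 was still called higher, at 0.57 (adjusted p = 0.000272 by edgeR).

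The 200 bases before the start of Mcm2 and Mcm6 are printed because these subunits of 1 complex moved in opposite directions. The sequences are from RefSeq on GRCm38.p6 and read 5′ to 3′ toward the gene. Capitals mark CCAAT, the CHR letters TTTGAA or TTCGAA, and the E2F letters TTTNGCGC or TTCCCGC, each on either strand and overlapping where they share bases.
Mcm2 (chr6:88898781-88898980, minus strand): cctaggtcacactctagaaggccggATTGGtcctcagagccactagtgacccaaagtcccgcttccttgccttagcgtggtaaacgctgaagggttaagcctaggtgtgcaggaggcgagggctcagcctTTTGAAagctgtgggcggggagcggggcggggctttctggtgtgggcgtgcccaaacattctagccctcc
Mcm6 (chr1:128359706-128359905, minus strand): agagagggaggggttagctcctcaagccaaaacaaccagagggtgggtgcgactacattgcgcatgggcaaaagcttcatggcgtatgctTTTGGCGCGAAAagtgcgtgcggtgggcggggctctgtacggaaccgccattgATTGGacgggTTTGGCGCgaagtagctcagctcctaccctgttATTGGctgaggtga
Mcm6 holds CCAAT at 2 places and E2F letters at 3, with no CHR letters in this window. Mcm2 holds CCAAT and CHR letters once each and no E2F letters. The other G1/S genes with E2F letters in the 250 bases before the start were Cdc6, Mcm5, Mcm7 and Rrm1. Of these, Cdc6 and Mcm7 fell, Rrm1 rose and Mcm5 was not called. Mcm7 also holds CHR letters. A match describes the letters only, and no binding was measured.

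Gins2 (ENSMUSG00000031821, chromosome 8, 120578633 to 120589304), a subunit of the GINS complex that joins MCM and CDC45 in the active helicase, had the largest fall of the 37 genes. It was at 20.8, 21.5 and 22.7 CPM in dKO 1, 2 and 3, against 65.2, 48.6 and 53.5 CPM in WT 1, 2 and 3. Every dKO library lay far below every WT library, and the log2 fold change was -1.37 ± 0.12 (adjusted p = 1.87e-05 by edgeR). This was the only fall among the 37 genes that passed the test against a 1.5-fold change. Gins2 overlaps Gse1 and Gm20388 on the other strand. The other GINS subunit genes, Gins1, Gins3 and Gins4, did not pass, with log2 fold changes of -0.24, -0.36 and -0.098, nor did Cdc45 at 0.15.

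The ribonucleotide reductase genes Rrm1 and Rrm2 were higher in dKO. This enzyme makes the deoxynucleotides for DNA synthesis. Rrm1, the large subunit, was at 209, 217 and 209 CPM in the dKO libraries, against 143, 114 and 149 CPM in WT, a log2 fold change of 0.65 ± 0.10 (adjusted p = 0.000538 by edgeR). Rrm2, the S-phase subunit, was at 92.1, 95.7 and 97.6 CPM in dKO and 76.2, 42.6 and 72.7 CPM in WT, a log2 fold change of 0.57 ± 0.19 (adjusted p = 0.0342 by edgeR). For both the groups were separate, with WT 2 the lowest library. Rrm1 overlaps Gm45399 on its own strand. The call of Rrm2 was lost without dKO 1, dKO 2 or dKO 3 (adjusted p = 0.0637, 0.0782 and 0.0923 by edgeR), and without WT 2 the value was 0.35. Tyms, the thymidylate synthase gene, did not pass, at 33.1, 33.1 and 35.4 CPM in dKO and 33.6, 20.7 and 34.3 CPM in WT.

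Pcna, which encodes the sliding clamp of the replicative polymerases, was at 272, 266 and 249 CPM in the dKO libraries, against 232, 200.2 and 235 CPM in WT. The groups were separate by a small margin, with a log2 fold change of 0.24 ± 0.081 (adjusted p = 0.031 by edgeR). That call was lost without WT 1 (adjusted p = 0.0584 by edgeR), WT 2 (0.0559), dKO 1 (0.108) or dKO 2 (0.0866).

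**Figure D2:**
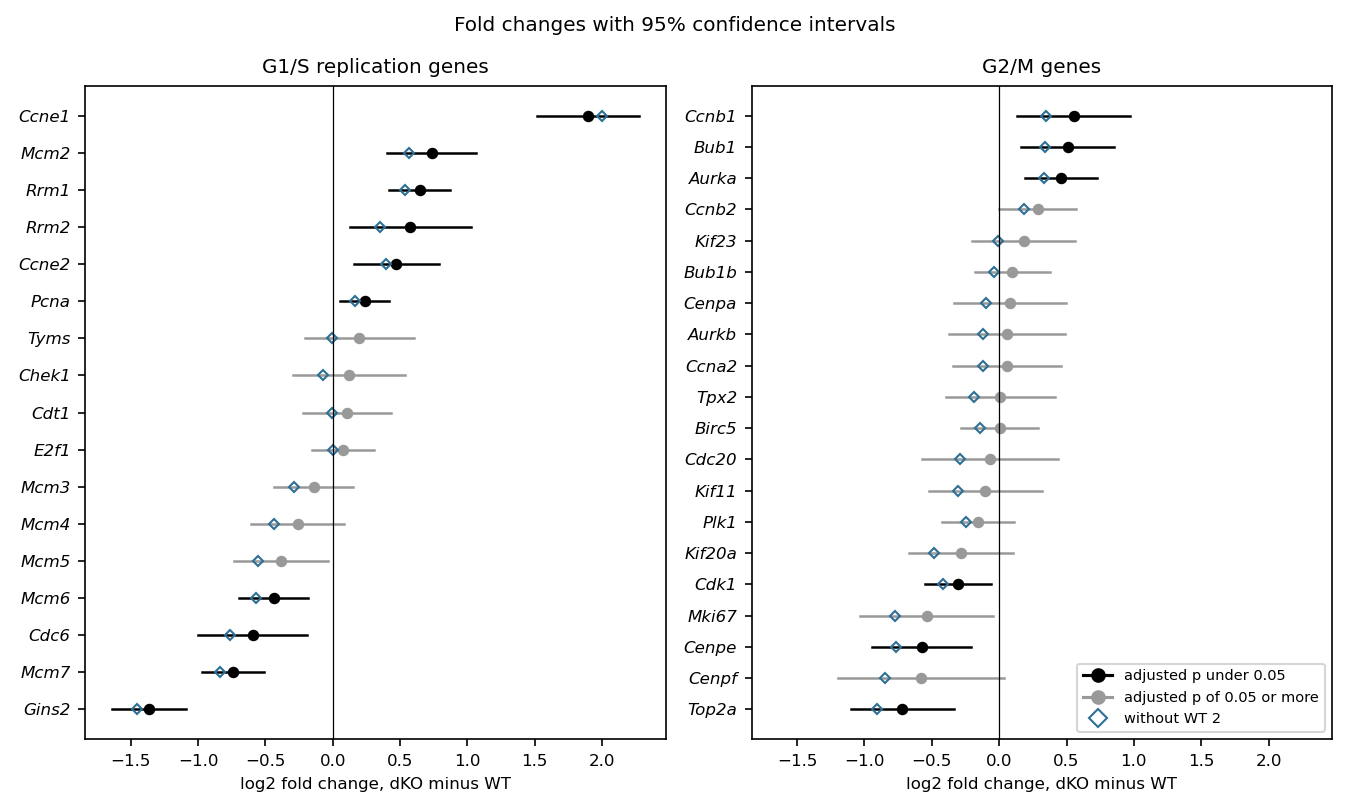
Log2 fold change (dKO minus WT) of each gene with its 95% interval from the edgeR fit, black where the adjusted p was under 0.05 and grey otherwise, and open diamonds for the fit without WT 2. Ccne1 lies far to the right at 1.90 and Gins2 far to the left at -1.37, and the diamonds of the G2/M genes all lie to the left of their circles.

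Among the G2/M genes, Ccnb1, Aurka and Bub1 rose and Cdk1, Cenpe and Top2a fell. Ccnb1 (ENSMUSG00000041431, chromosome 13, 100778650 to 100786570), the cyclin B1 gene whose product drives entry into mitosis, was at 93.5, 104 and 103 CPM in dKO 1, 2 and 3, against 78.3, 47.2 and 79.1 CPM in WT 1, 2 and 3. The dKO libraries were all above the WT libraries, with WT 2 well below the rest, and the log2 fold change was 0.55 ± 0.18 (adjusted p = 0.0295 by edgeR). The call of Ccnb1 was lost without dKO 2 (adjusted p = 0.0782 by edgeR) or dKO 3 (0.0832), and the value was 0.35 without WT 2. Its kinase partner Cdk1 was lower, at 85.8, 88.3 and 83.7 CPM in the dKO libraries against 111, 88.6 and 119 CPM in WT. WT 2 nearly touched the dKO range, and the log2 fold change was -0.30 ± 0.11 (adjusted p = 0.037 by edgeR). Leaving out any single library other than WT 2 ended the call of Cdk1 (adjusted p = 0.114 without WT 1, 0.134 without WT 3, 0.0976 without dKO 1, 0.0746 without dKO 2 and 0.0828 without dKO 3 by edgeR), and without WT 2 its value was -0.42.

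The other mitotic cyclins did not pass. Ccna2, the cyclin A2 gene that acts in S phase and G2, was at 97.7, 109 and 129 CPM in dKO and 121, 79.5 and 122 CPM in WT, with overlapping groups and a log2 interval of -0.34 to 0.46. Ccnb2, the second cyclin B gene, had a log2 fold change of 0.29 (adjusted p = 0.0792 by edgeR). Ccna2 overlaps Exosc9 on the other strand.

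Mitotic kinase genes were also mixed. Aurka, which encodes the kinase of centrosome maturation, was at 53.8, 50.6 and 51.4 CPM in the dKO libraries, against 40.4, 31.3 and 41.8 CPM in WT. The groups were separate, and the log2 fold change of 0.46 ± 0.12 (adjusted p = 0.00905 by edgeR) was called with each library left out. Bub1, a kinase of the spindle checkpoint, was at 63.3, 64.8 and 65.0 CPM in dKO and 47.3, 34.0 and 54.4 CPM in WT, a log2 fold change of 0.51 ± 0.15 (adjusted p = 0.0179 by edgeR). Without dKO 2 the call of Bub1 was lost (adjusted p = 0.0504 by edgeR), and without WT 2 its value was 0.34. Plk1, the polo-like kinase gene of mitotic entry, did not pass, at 51.7, 50.9 and 63.6 CPM in dKO and 66.9, 54.2 and 64.1 CPM in WT. Aurkb and Birc5, which encode the kinase and the survivin subunit of the chromosomal passenger complex, had log2 fold changes of 0.061 and 0.0026, with intervals of -0.37 to 0.49 and -0.29 to 0.29. Bub1b, a checkpoint gene, and Cdc20, the activator of the anaphase-promoting complex, were at 0.098 and -0.071 and did not pass.

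Of 5 genes of chromosome structure and the kinetochore, Top2a and Cenpe fell and Mki67, Cenpf and Cenpa did not pass. Top2a (ENSMUSG00000020914, chromosome 11, 98992943 to 99024189), which encodes the topoisomerase that untangles sister chromatids, was at 299.7, 328 and 343 CPM in dKO 1, 2 and 3, against 601, 385 and 613 CPM in WT 1, 2 and 3. The dKO libraries all lay below the WT libraries, nearest to WT 2, and the log2 fold change was -0.72 ± 0.17 (adjusted p = 0.00609 by edgeR). The call of Top2a held with each library left out. Cenpe, a kinetochore motor gene, was at 69.5, 72.4 and 74.5 CPM in dKO and 119.9, 77.7 and 125 CPM in WT, a log2 fold change of -0.58 ± 0.16 (adjusted p = 0.0145 by edgeR). Here too the groups were separate by a small margin at WT 2, and the call was lost without WT 1 (adjusted p = 0.0517 by edgeR) or dKO 1 (0.0504). Mki67, which encodes the proliferation marker Ki-67 that coats mitotic chromosomes, was at 276, 279.9 and 293 CPM in dKO and 454, 269 and 509.9 CPM in WT. WT 2 lay below all dKO libraries and WT 1 and WT 3 far above them, and the log2 fold change of -0.54 ± 0.21 did not pass (adjusted p = 0.0624 by edgeR). Cenpf, a kinetochore gene for which WT 2 likewise lay below and WT 1 and WT 3 above all dKO libraries, was at 82.2, 82.0 and 93.4 CPM in dKO and 145, 76.3 and 163 CPM in WT, a log2 fold change of -0.58 ± 0.26 (adjusted p = 0.0961 by edgeR). DESeq2 called Mki67 and Cenpf lower (DESeq2 adjusted p = 0.00852 and 0.0175). Cenpa, the centromeric histone gene, had a log2 fold change of 0.081, with an interval of -0.33 to 0.50.

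None of the 4 spindle motor and microtubule genes passed with all libraries by edgeR at an adjusted p under 0.05. Kif11, the motor that separates spindle poles, had a log2 fold change of -0.10, Kif20a and Kif23, both motors of cytokinesis, -0.28 and 0.18, and Tpx2, which nucleates spindle microtubules, 0.0083. Kif20a was at 71.3, 74.0 and 73.4 CPM in dKO and 97.4, 63.0 and 106 CPM in WT, and Kif11 at 101, 112 and 114 CPM in dKO and 133, 81.6 and 137 CPM in WT. In both, WT 2 lay below every dKO library while WT 1 and WT 3 lay above. At an unadjusted p under 0.05, edgeR also called 0 of the 4, as did DESeq2 at an adjusted p under 0.05.

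The promoters of Ccnb1, Cdk1 and Top2a are shown because cyclin B1 and its kinase partner moved in opposite directions and Top2a had the largest G2/M fall. The source and capitals are as for the MCM genes, and bases that lie in an annotated exon are left out, 84 for Ccnb1 and 26 for Cdk1.
Ccnb1 (chr13:100786571-100786686, minus strand): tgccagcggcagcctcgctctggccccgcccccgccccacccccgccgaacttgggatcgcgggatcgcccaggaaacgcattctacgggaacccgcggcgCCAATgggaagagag
Cdk1 (chr10:69352939-69353112, minus strand): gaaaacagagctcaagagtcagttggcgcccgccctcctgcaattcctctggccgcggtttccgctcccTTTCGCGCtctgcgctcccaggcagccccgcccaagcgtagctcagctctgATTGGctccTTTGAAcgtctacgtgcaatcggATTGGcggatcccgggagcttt
Top2a (chr11:99024190-99024389, minus strand): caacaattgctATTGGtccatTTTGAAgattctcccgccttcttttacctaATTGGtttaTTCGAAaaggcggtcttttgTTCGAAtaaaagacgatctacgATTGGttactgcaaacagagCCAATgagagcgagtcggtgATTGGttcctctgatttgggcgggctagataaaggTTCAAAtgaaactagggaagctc
Each stretch holds CCAAT, once for Ccnb1, at 2 places for Cdk1 and at 5 for Top2a. CHR letters are present once in Cdk1 and at 4 places in Top2a. Cdk1 is the only G2/M gene with E2F letters among the 16 searched. RefSeq promoters were found for 30 of the 37 genes. In the whole 250 bases before the start, CCAAT was present in 15 of 16 G2/M genes (93.8%) and 8 of 14 G1/S genes (57.1%), and in 34.5% of the 27025 genes of the promoter table. CHR letters were in 43.8% of the G2/M genes and 14.3% of the G1/S genes, and in 17.4% of all genes. The E2F letters were in 6.25% of the G2/M genes and 35.7% of the G1/S genes, and in 4.89% of all genes. These shares describe the 2 sets, and both hold genes that rose and genes that fell.

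The WT libraries were not alike for these genes. WT 2 was the lowest of the WT libraries for all 20 G2/M genes and for 16 of the 17 G1/S genes, the exception being Ccne1. Among all genes tested, WT 2 was the lowest for 43.7%. The level in WT 2 divided by the mean of WT 1 and WT 3 had a median of 0.640 over the G2/M genes, from 0.495 for Cenpf to 0.827 for Plk1. Over the G1/S genes this ratio had a median of 0.747, from 0.573 for Rrm2 to 1.22 for Ccne1, and over all genes a median of 0.981. On the log2 scale, the median deviation of WT 2 from the WT mean was -0.28 for the G1/S genes and -0.42 for the G2/M genes, against -0.01 over all genes tested.

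The dKO libraries were closer to each other. Their median deviations from the dKO mean ran from -0.03 to 0.06 for the G1/S genes and from -0.06 to 0.06 for the G2/M genes, with dKO 3 the highest in both. The coefficient of variation had a median of 6.12% in dKO and 23.8% in WT over the G2/M genes, and of 2.96% between WT 1 and WT 3 alone. For the G1/S genes it was 4.41% in dKO and 16.0% in WT, and 3.48% between WT 1 and WT 3. Over all genes tested it was 11.6% in both groups and 6.14% between WT 1 and WT 3.

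**Figure D3:**
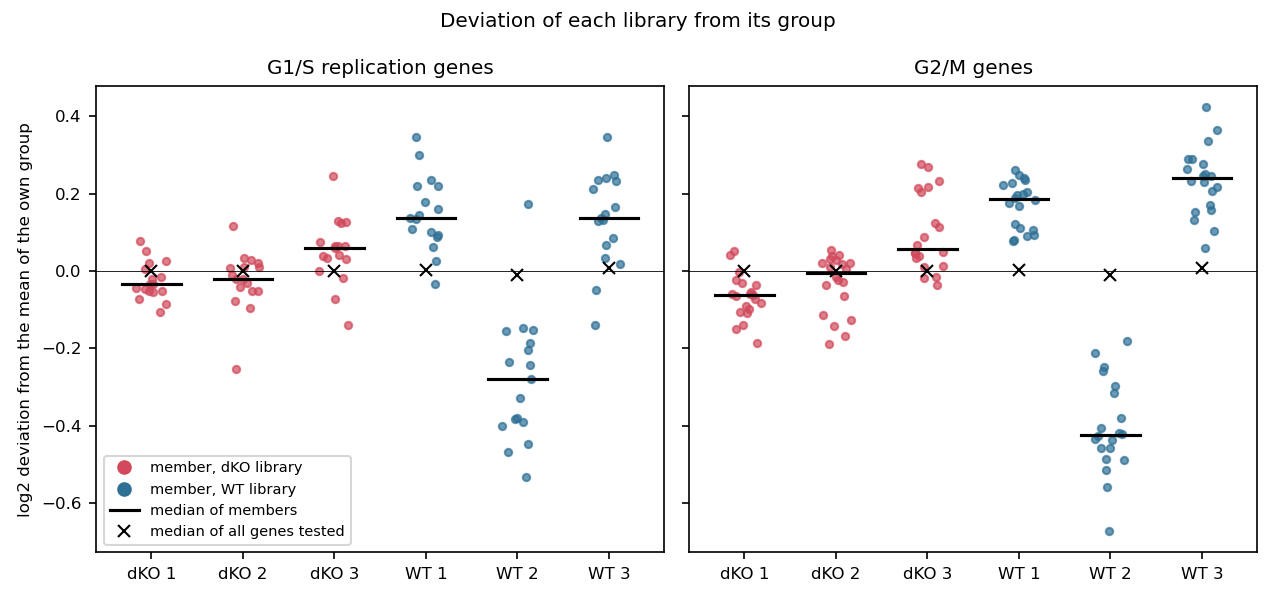
Log2 deviation of each gene in each library from the mean of its own group, from CPM plus 0.5. Points are genes, bars the median of the genes and crosses the median of all genes tested. WT 2 lies low in both panels, at medians of -0.28 and -0.42, while the crosses stay near 0.

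Marker genes of other cell types also differed in WT 2. The summed level of 10 leukocyte markers was 198, 199.9 and 70.4 CPM in dKO 1, 2 and 3, against 17.7, 51.7 and 13.9 CPM in WT 1, 2 and 3. Csf1r made up most of it in dKO and Cd14 most of it in WT. Csf1r was at 188, 189.5 and 62.7 CPM in dKO and 3.55, 14.2 and 1.01 CPM in WT. Cd14 was at 5.62, 5.87 and 5.12 CPM in dKO and 13.9, 37.2 and 12.9 CPM in WT, highest in WT 2 (log2 fold change -1.94, edgeR adjusted p = 0.00433). The other leukocyte markers tested, Csf1r, Itgam and Aif1, were called higher in dKO, at 4.58, 7.02 and 3.80 (adjusted p = 0.0183, 0.00262 and 0.00362 by edgeR). The call of Csf1r was lost without WT 1 (adjusted p = 0.0669 by edgeR). Cd3e and Tyrobp were at 0 in every library. The sum of 10 fibroblast markers was 11.8, 12.8 and 11.7 CPM in the dKO libraries, against 66.8, 41.7 and 63.0 CPM in WT. Lum and Thy1 were at 0 throughout. The 5 fibroblast markers tested were called in both directions. Col1a1, Pdgfra and Pi16 were lower in dKO, with log2 fold changes of -2.30, -3.99 and -6.91 (adjusted p = 0.00015, 1.5e-06 and 6.9e-05 by edgeR). Col1a2 and Postn were higher, at 4.43 and 3.78 (adjusted p = 0.0065 and 0.0061 by edgeR). The sum of 8 endothelial markers was at most 1.03 CPM in dKO and 1.84 CPM in WT. WT 2 also had the fewest counts of the WT libraries, 40150225. The part of these differences in the levels of the replication and mitosis genes was not tested.

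Which genes were called depended on WT 2. Without it, 5 G1/S genes were called higher and 7 lower, and 3 G2/M genes higher and 7 lower, while of all genes 28.0% were higher and 27.0% lower (55.0% called). All 7 genes called lower with every library were among these 14, to which Mcm3, Mcm4, Mcm5, Cenpf, Kif11, Kif20a and Mki67 were added, and Pcna was lost from the genes called higher. Mki67 then had a log2 fold change of -0.77, Cenpf -0.85 and Top2a -0.91 (adjusted p = 6.5e-05, 0.000133 and 2.95e-05 by edgeR). Without WT 3 the values were -0.35 for Mki67, -0.37 for Cenpf and -0.61 for Top2a (adjusted p = 0.172, 0.256 and 0.0198 by edgeR), with Top2a alone of the 3 called. The median over the G2/M genes was -0.16 without WT 2, against 0.01 over all genes.

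With both WT 2 and dKO 3 left out, 13 of the 20 G2/M genes were called lower and the same 3 higher, while of all genes 31.0% were lower and 31.3% higher (62.3% called). The added genes were Ccna2, Plk1, Aurkb, Cdc20, Cenpa and Tpx2, besides those added without WT 2. Among the G1/S genes, the same 6 were called higher and 7 lower. Thus Ccnb1, Aurka and Bub1 were called higher, and Cdk1, Cenpe and Top2a lower, with all libraries, without WT 2 and without both. Of these genes, only Aurka and Top2a also kept the call whichever other single library was left out. WT 2 was the lowest WT library for all 20 G2/M genes, so leaving it out does not test the falls. Leaving out these libraries was chosen with their position known, and each group then has only 2 libraries.

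Other replication genes, 45 in number, divided into 16 that rose, 8 that fell and 21 not called (median log2 fold change 0.06). The share called, 53.3%, was close to the 57.3% of all genes tested. Dbf4, the activating subunit of the kinase that fires origins, was at 212, 218 and 163 CPM in the dKO libraries, against 53.8, 44.6 and 55.4 CPM in WT, a log2 fold change of 1.95 ± 0.13 (adjusted p = 3.33e-06 by edgeR). All dKO libraries were far above all WT libraries. Its catalytic partner Cdc7 was at 30.7, 30.4 and 28.8 CPM in dKO and 27.9, 25.4 and 27.2 CPM in WT and did not pass (adjusted p = 0.186 by edgeR). Orc2, a subunit of the origin recognition complex, was at 89.1, 95.8 and 85.6 CPM in dKO and 34.7, 33.1 and 36.7 CPM in WT, a log2 fold change of 1.37 ± 0.083, and Rfc1, the large subunit of the clamp loader, rose by 0.90 ± 0.093 (adjusted p = 1.92e-06 and 4.67e-05 by edgeR). Orc2 overlaps Nif3l1 on the other strand.

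The largest subunit of polymerase alpha, Pola1, fell to 25.9, 23.3 and 23.4 CPM in the dKO libraries, against 60.2, 45.5 and 67.5 CPM in WT, a log2 fold change of -1.25 ± 0.14 (adjusted p = 8.87e-05 by edgeR). Its partner subunit gene Pola2 rose by 0.29 ± 0.086 and the primase gene Prim1 had a log2 fold change of -0.50 ± 0.11 (adjusted p = 0.0159 and 0.00382 by edgeR). Tk1, the thymidine kinase gene, and Timeless, a gene of the fork protection complex, had log2 fold changes of -0.58 ± 0.076 and -0.96 ± 0.15 (adjusted p = 0.000199 and 0.000588 by edgeR), while Tipin, whose product binds that of Timeless, rose by 0.46 ± 0.10 (adjusted p = 0.00393 by edgeR). Tk1 overlaps Afmid on the other strand. Pola2, Prim1, Tipin, Cdc7 and the GINS genes were named after their values were seen.

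**Figure D4:**
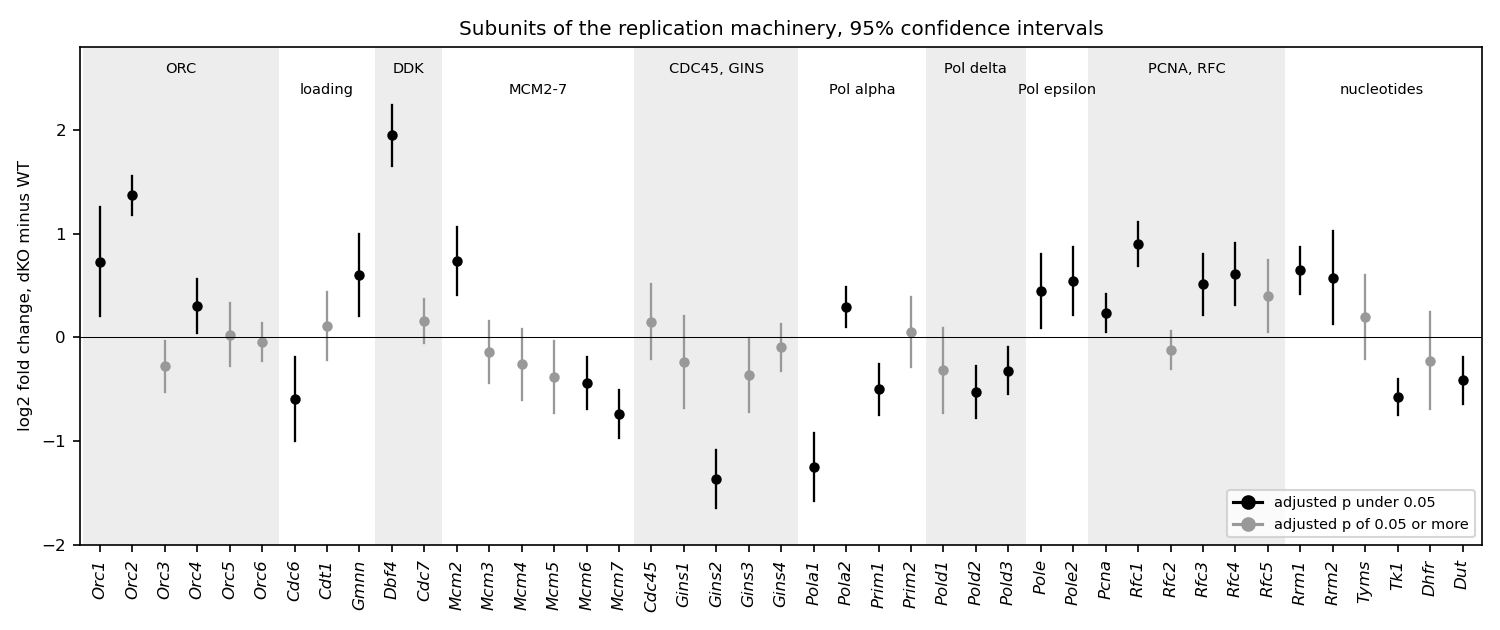
Log2 fold change (dKO minus WT) with 95% interval for subunits of the replication machinery, grouped by complex, black where the edgeR adjusted p was under 0.05 and grey otherwise. Within the MCM2-7 helicase, the polymerase alpha complex and the Dbf4-Cdc7 kinase (DDK), subunits differ in direction or size. The values span 1.95 for Dbf4 to -1.37 for Gins2.

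Other mitosis genes numbered 50, of which 8 rose, 8 fell and 34 were not called (median log2 fold change -0.09). Thus 32% were called, against 57.3% of all genes tested. Without WT 2, 8 were called higher and 24 lower (median -0.23), while of all genes 28.0% were higher and 27.0% lower. Cenpi, a centromere gene, was at 42.3, 39.1 and 41.6 CPM in the dKO libraries, against 16.3, 11.8 and 16.0 CPM in WT, a log2 fold change of 1.48 ± 0.14 (adjusted p = 2.5e-05 by edgeR). Every dKO library was at more than 2 times the level of any WT library. Ect2, the exchange factor of cytokinesis, and Kif18a, a motor that aligns chromosomes, rose by 0.89 ± 0.11 and 0.89 ± 0.12 (adjusted p = 0.00017 and 0.000245 by edgeR). Bub3, a checkpoint gene, and the phosphatase genes Cdc25b and Cdc25c, whose products activate CDK1, had log2 fold changes of -0.33 ± 0.065, -0.70 ± 0.17 and -0.60 ± 0.15 (adjusted p = 0.00236, 0.00726 and 0.00845 by edgeR). Kif18a overlaps Mettl15, Bub3 overlaps Fgfr2 and Cdc25b overlaps Spef1 on the other strand.

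Genes of cell cycle transcription numbered 18, of which 8 rose, 4 fell and 6 were not called (median 0.39). The share called was 66.7%, against 57.3% of all genes tested. E2f8, an E2F repressor, was at 17.5, 17.7 and 20.8 CPM in the dKO libraries, against 84.1, 56.6 and 82.5 CPM in WT, a log2 fold change of -1.99 ± 0.16 (adjusted p = 1.04e-05 by edgeR). Its close relative E2f7 went the other way, at 37.7, 37.3 and 38.2 CPM in dKO and 21.01, 14.1 and 22.8 CPM in WT, a log2 fold change of 0.97 ± 0.17 (adjusted p = 0.00103 by edgeR). For both genes the groups were separate. The count of E2f7 relative to E2f8 was 2.16, 2.11 and 1.83 in dKO 1, 2 and 3, against 0.250, 0.249 and 0.277 in WT 1, 2 and 3.

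Among the partners and pocket proteins, E2f4 and E2f6, which encode E2F factors that mostly repress, and Tfdp1, the DNA-binding partner of E2F, rose by 0.65 ± 0.075, 0.74 ± 0.10 and 0.49 ± 0.077 (adjusted p = 9.26e-05, 0.000316 and 0.000554 by edgeR). The retinoblastoma relatives Rbl1 and Rbl2, whose proteins bind repressor E2F factors, had log2 fold changes of -0.79 ± 0.17 and -0.75 ± 0.11 (adjusted p = 0.00303 and 0.000493 by edgeR). Foxm1, which encodes a factor that acts on G2/M genes, was at 101, 98.2 and 115 CPM in dKO and 76.9, 51.0 and 78.3 CPM in WT, a log2 fold change of 0.61 ± 0.16 (adjusted p = 0.00947 by edgeR). E2f7 and Foxm1 were named after their values were seen. Rbl2 overlaps Aktip on the other strand.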

How the data were processed

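Per the labels, RNA from 4T1 spheroids was sequenced in 3 dKO and 3 WT libraries. The authors deposited estimated counts per Ensembl gene, unnormalized whole numbers. The tools named in the submitters' processing notes are HISAT2 2.2.1 and StringTie 2.2.1, and the build is GRCm38 (mm10). Sources used here do not give the counting step, annotation or use of strand. Values piled up at 4 (678 to 775 genes per library, against 273 to 367 at 5), so counts may be multiples of reads.

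Symbols, positions and exon lengths came from GENCODE M21 (48144 identifiers matched). edgeR 4.0.16 in R 4.3.3 was used with TMM, filterByExpr by group, robust quasi-likelihood and genotype as the only term, with Benjamini-Hochberg adjustment over 15807 genes. SE is |log2 fold change| over the root of F, and intervals use its t distribution. The procedure was also run on simulated counts that held no shift shared by genes in a single library, so that run does not address WT 2. Members, lists and alternatives were chosen with earlier results of these data known. Values per library were given for called members and 11 core genes. They were also given for Chek1, Cdt1, Tyms, Mcm5, Cenpf, Kif11 and Kif20a, which are neither called nor core genes and were picked with their values known. In each other list the 3 called genes with the smallest adjusted p in each direction were named, some by fold change only. Other exceptions are stated. The alternatives were other scalings, filters, DESeq2 1.42.0, a replicate block, counts divided by 4, a 1.5-fold null and leaving out libraries.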

Additional observations from a re-analysis of the deposited data

How the results depend on the processing

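Counts of called genes depended on which libraries entered. With 1 library left out, the counts ran from 3 to 6 G1/S genes higher and 3 to 7 lower, from 1 to 3 G2/M genes higher and 1 to 7 lower, from 7 to 10 other mitosis genes higher and 4 to 24 lower, and from 11 to 15 other replication genes higher and 7 to 12 lower. Of all genes, 4049 to 4637 were then higher (24.6% to 28.0%) and 3973 to 4581 lower (24.1% to 27.8%). Without WT 2 and dKO 3, 6 G1/S genes were higher and 7 lower, 3 G2/M genes higher and 13 lower, 18 other replication genes higher and 15 lower, and 11 other mitosis genes higher and 28 lower, against 31.3% of all genes higher and 31.0% lower. DESeq2's Wald test called 3 G2/M genes higher and 5 lower, against 29.7% of all genes higher and 29.5% lower. Against a 1.5-fold null, a stricter test by construction, edgeR called 2197 genes higher (13.9%) and 2359 lower (14.9%). Of the lists, it called 1 G1/S gene higher and 1 lower, 0 G2/M genes in either direction (0 also at an unadjusted p under 0.05), 3 other replication genes higher and 3 lower, 3 other mitosis genes higher and 0 lower (0 unadjusted), and 1 transcription gene higher and 2 lower. DESeq2 was not run against that null.

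The labels do not say whether same-numbered libraries are paired. Correlations of same-numbered deviations were -0.060, 0.048 and 0.082. Those of differently numbered libraries ran from -0.13 (dKO 3 with WT 2) to 0.10 (dKO 1 with WT 2). These values show no pairing by number, but with 3 libraries per group they cannot exclude it. With a replicate block, 6 G1/S genes were higher and 5 lower, and 4 G2/M genes higher and 3 lower. Of all genes, 8658 were called (54.8%), 4338 higher (27.4%) and 4320 lower (27.3%).

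Of the 16 members called, 8 kept the call in every fit but the 1.5-fold one (Ccne1, Mcm2, Mcm6, Mcm7, Gins2, Rrm1, Aurka and Top2a), and none turned. Turned signs arose among members not called: without WT 2 and dKO 3, the log2 fold changes were -0.13 for Cdt1, -0.036 for Tyms, -0.13 for Chek1, -0.23 for Ccna2, -0.27 for Aurkb, -0.16 for Birc5, -0.028 for Bub1b, -0.22 for Cenpa, -0.024 for Kif23 and -0.24 for Tpx2, and Birc5 was at -0.0012 with upper-quartile factors. With 1 library left out, the ranges were -0.00011 to 0.14 for E2f1, -0.023 to 0.23 for Cdt1, -0.0046 to 0.32 for Tyms, -0.071 to 0.31 for Chek1, -0.12 to 0.16 for Ccna2, -0.12 to 0.18 for Aurkb, -0.14 to 0.090 for Birc5, -0.039 to 0.21 for Bub1b, -0.29 to 0.060 for Cdc20, -0.10 to 0.21 for Cenpa, -0.31 to 0.023 for Kif11, -0.0063 to 0.36 for Kif23 and -0.19 to 0.12 for Tpx2. Among members that kept their sign, Mcm3 ran from -0.29 to -0.022, Mcm4 from -0.44 to -0.14, Kif20a from -0.48 to -0.14, Cenpf from -0.85 to -0.37 and Mki67 from -0.77 to -0.35. The cause was not tested. The deviation of WT 2 kept its sign under each scaling. Ccne1, at 3.32 to 4.24 CPM in WT, is the least deeply counted member.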
